A study of Mus musculus with 16 samples.

Results

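The regenerating islet-derived (Reg) genes were read out of the islet RNA-seq of the 8 founder strains by their symbols, Reg1, Reg2, Reg3a, Reg3b, Reg3d, Reg3g and Reg4, which gave 7 members among the 54146 genes listed in each library. The filter on low counts kept 6 of them among the 15191 genes tested, and Reg4 did not pass it. The libraries were made from total RNA of whole pancreatic islets from mice of 26 weeks, all kept on a high-fat diet, from both sexes. The strains are 129S1_SvImJ (129, 10 libraries), A_J (AJ, 14), C57BL/6J (B6, 18), CAST_EiJ (CAST, 14), NOD_ShiLtJ (NOD, 10), NZO_HlLtJ (NZO, 4), PWK_PhJ (PWK, 5) and WSB_EiJ (WSB, 16), which makes 91 libraries in 16 samples, each sample holding the libraries of 1 strain and 1 sex. NZO had 3 female libraries and 1 male library, and PWK had 1 female library and 4 male libraries. The labels do not say that each library is a separate mouse, so the p-values measure the spread between libraries.

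Reg proteins are small secreted proteins with a C-type lectin fold. Reg1 and Reg2 were named for the regenerating endocrine pancreas, and the normal acinar cell, which makes the digestive enzymes of the pancreas, is a main source of Reg1. Reg3b, also called pancreatitis-associated protein, and Reg3g are secreted by the intestinal epithelium, where they act against bacteria, and Reg3b rises sharply in acinar cells during pancreatitis. Cytokines that signal through STAT3, among them IL-22 and IL-6, induce Reg3 genes. Reg4 is best known from the intestinal epithelium.

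Of the 7 genes, 6 lie together on chromosome 6 of GRCm38, and the interval of 98.2 kb from 78370657 to 78468872 holds no other protein-coding gene. From its first base the order is Reg3b (78370657 to 78373466, plus strand), Reg3d (78375874 to 78378865, minus strand), Reg3a (78380709 to 78383827, plus strand), Reg2 (78395623 to 78408106, plus strand), Reg1 (78422711 to 78428667, plus strand) and Reg3g (78466269 to 78468872, minus strand). Reg4 lies on chromosome 3 (98222156 to 98236748, plus strand). Cpa1, which encodes the acinar enzyme carboxypeptidase A1 and served as the measure of acinar RNA in each library, lies on chromosome 6 (30639218 to 30645363, plus strand), outside this interval. The members resemble one another, with 78.9% identical bases in the aligned transcripts of Reg1 and Reg2, 74.4% in those of Reg3b and Reg3g and 74.0% in those of Reg3a and Reg3b. Runs of 31 bases were shared by Reg3b and Reg3g alone, which had 5 of them in common, and the expected counts divide any read between genes that share its sequence.

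The sequences of 250 bases before the RefSeq start site (GRCm38.p6) are shown for Reg1 and Reg2, the members with the most RNA, and for Reg3b and Reg3g, the members called higher in NZO than in every other strain. Capitals mark CACCTG and TTCCCA, which are the letters of both boxes of the site of the acinar factor PTF1, and TTCNNNGAA, the general STAT site. Each was searched on both strands, so that TTCCCA can appear as TGGGAA, and letters shared by overlapping matches were marked once.
Reg1 chr6:78425733-78425982 (+): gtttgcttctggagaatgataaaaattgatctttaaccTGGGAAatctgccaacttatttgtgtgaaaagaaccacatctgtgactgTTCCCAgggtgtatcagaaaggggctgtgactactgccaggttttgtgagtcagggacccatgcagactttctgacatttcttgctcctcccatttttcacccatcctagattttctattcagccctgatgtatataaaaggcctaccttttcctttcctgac
Reg2 chr6:78404905-78405154 (+): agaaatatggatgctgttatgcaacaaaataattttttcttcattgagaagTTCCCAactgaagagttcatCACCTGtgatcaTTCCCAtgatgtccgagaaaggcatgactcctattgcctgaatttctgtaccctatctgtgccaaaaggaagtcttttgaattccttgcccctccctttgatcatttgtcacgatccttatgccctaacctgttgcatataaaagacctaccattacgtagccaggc
Reg3b chr6:78370635-78370884 (+): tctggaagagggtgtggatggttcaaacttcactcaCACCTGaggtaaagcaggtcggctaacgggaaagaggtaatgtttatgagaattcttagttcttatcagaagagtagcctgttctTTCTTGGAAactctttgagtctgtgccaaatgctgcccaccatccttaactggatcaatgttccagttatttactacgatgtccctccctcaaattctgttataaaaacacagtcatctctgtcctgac
Reg3g chr6:78468875-78469124 (-): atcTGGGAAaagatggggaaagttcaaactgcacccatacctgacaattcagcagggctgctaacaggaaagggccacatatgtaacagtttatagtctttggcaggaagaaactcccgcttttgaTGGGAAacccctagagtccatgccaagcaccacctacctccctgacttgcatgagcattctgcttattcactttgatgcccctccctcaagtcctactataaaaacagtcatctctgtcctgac

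All 4 windows held TATAAA within 30 bases of the start, as 4 of the 7 members did anywhere in their window, against 12.4% of promoters. Reg3b and Reg3g were identical over the last 20 bases before their starts. The RefSeq starts used for Reg1, Reg2 and Reg3b lie inside the gene spans given above, which come from GENCODE. CACCTG was found in 5 of the 7 members against 17.2% of 32851 RefSeq promoters of the same length, and TTCCCA in 5 of the 7 against 21.6%. Both stood in 3 of the 7 members (Reg2, Reg3a and Reg3d) against 3.91% of promoters. TTCNNNGAA stood in 2 of the 7 (Reg3b and Reg3d) against 7.02%. These matches describe the letters of the B6 reference and are not measured sites.

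Library totals ranged from 16928552 to 35196145 expected counts, with a median of 27485367, so that 3 counts correspond to 0.0852 to 0.177 CPM, counts scaled to a fixed library total, which covers counting error only. In 12 libraries the sex marker genes went against the label (6 of 129, 2 of NOD, 4 of WSB). Libraries of 129, NOD, NZO and PWK carry numbers from 66 to 100 and those of the other strains numbers from 1 to 65, and the 4 collection waves are not tied to libraries. Between these 2 sets of strains, number and strain cannot be told apart, nor can they within the first set, where PWK has numbers from 66 to 75, 129 from 76 to 85, NZO from 86 to 90 and NOD from 91 to 100. Markers of the exocrine pancreas were present in every library, with a sum over 20 acinar genes from 2283 TPM to 416606 TPM, beside a sum over 9 beta cell genes from 166620 TPM to 572782 TPM.

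Reg1 accounted for most Reg RNA in nearly all islets. In TPM, which are scaled for transcript length and to a fixed total, the 7 members summed to between 57.9 and 18140 TPM per library, or between 0.00579% and 1.81% of all transcripts. Reg1 was the highest member in 89 of 91 libraries, and Reg2 in the other 2, both from CAST. The means over the 91 libraries were 2367 TPM for Reg1, 339 TPM for Reg2, 53.9 TPM for Reg3b, 35.8 TPM for Reg3d, 10.4 TPM for Reg3a, 4.12 TPM for Reg3g and 0.0979 TPM for Reg4. Reg3a was at 0 in 2 libraries, Reg3g in 5 and Reg4 in 75.

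**Figure D1:**
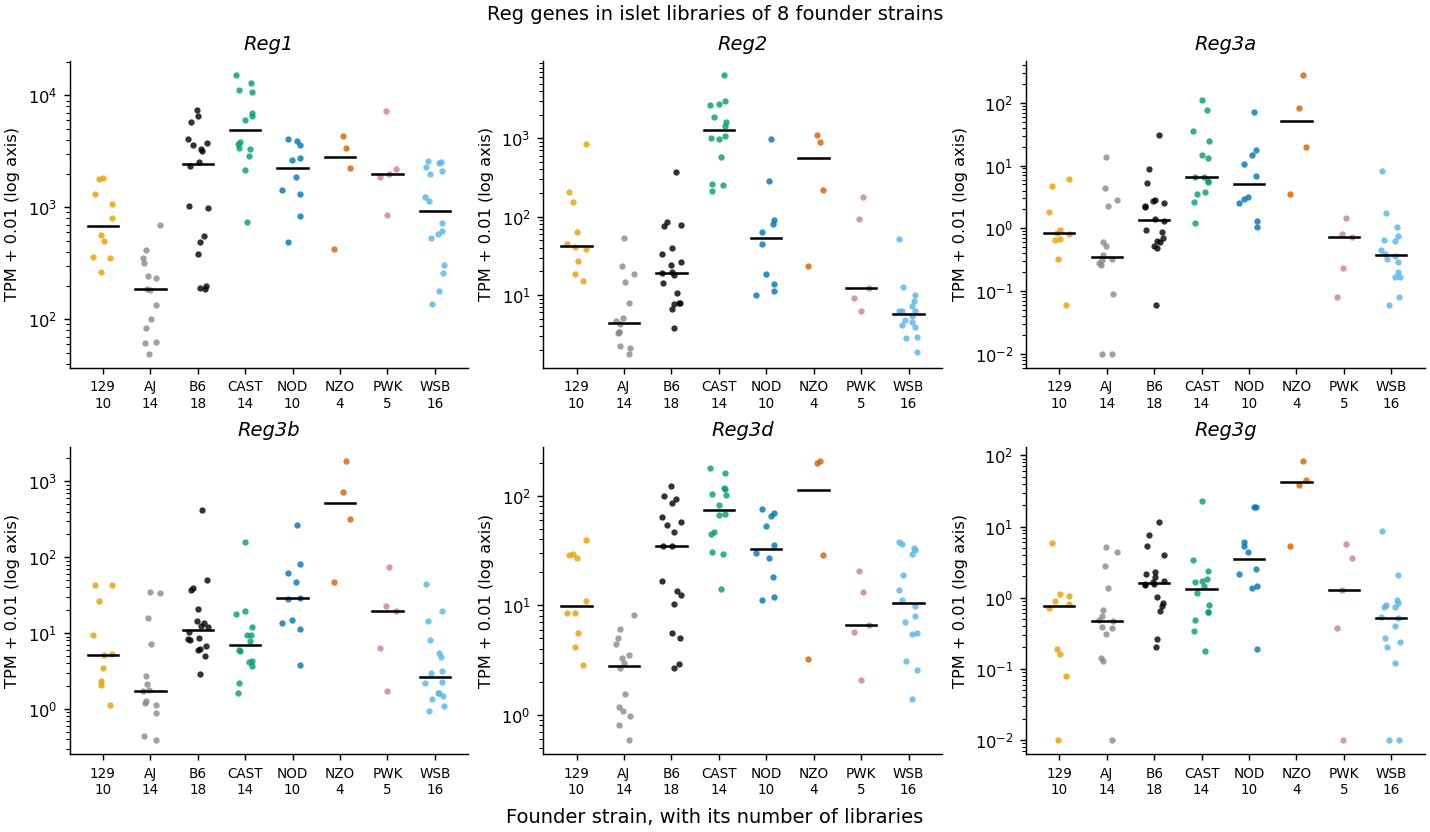
TPM of the 6 clustered Reg genes in each library (points; y axis logarithmic, with 0.01 TPM added so that zeros can be drawn) by strain, with the median of each strain as a black bar. Reg1 and Reg3d were lowest in AJ, Reg2 was highest in CAST with 210 to 6414 TPM, and Reg3b, Reg3a and Reg3g had their highest libraries in NZO.

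The amount of Reg1 varied widely within each strain. Reg1 had its lowest, median and highest value at 733, 4949 and 15222 TPM in CAST, at 185, 2453 and 7477 TPM in B6 and at 487, 2260 and 4066 TPM in NOD. It was at 138, 929 and 2571 TPM in WSB, at 263, 680 and 1838 TPM in 129 and at 49.1, 185 and 702 TPM in AJ. The 4 NZO libraries held 421, 4299, 3424 and 2232 TPM, and the 5 PWK libraries 1865, 849, 2196, 7238 and 1987 TPM. The strains overlapped, except that every CAST library and every PWK library lay above every AJ library.

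Reg2, the close relative of Reg1, differed more between strains. CAST libraries held between 210 and 6414 TPM with a median of 1260 TPM, and NZO libraries held 23.2, 1089, 908 and 218 TPM. The medians were 54.1 TPM in NOD (10.2 to 984), 42.6 TPM in 129 (15 to 835) and 19.4 TPM in B6 (3.75 to 377), and PWK libraries held 9.16, 6.25, 12.4, 94.4 and 179 TPM. WSB had a median of 5.75 TPM (1.88 to 52.1) and AJ of 4.43 TPM (1.77 to 54). Only 7 of the 77 libraries of other strains reached the lowest CAST library, and none of AJ, PWK or WSB did.

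Reg3b was highest in NZO, whose libraries held 47.1, 716, 1842 and 323 TPM. The medians of the other strains ran from 1.74 TPM in AJ (0.38 to 34.3) and 2.62 TPM in WSB (0.94 to 43.7) to 28.6 TPM in NOD (3.78 to 265). Between them lay 129 at 5.20 TPM (1.11 to 43.3), CAST at 6.93 TPM (1.60 to 159) and B6 at 11.1 TPM (2.90 to 414), and PWK libraries held 6.33, 1.73, 19.3, 22.7 and 73.3 TPM. Of the 87 libraries of other strains, 7 reached the lowest NZO library, and none of 129, AJ or WSB did.

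Reg3g, the less abundant relative of Reg3b, followed the same order at its top. NZO libraries held 5.30, 39, 82.9 and 45.3 TPM, and no library of another strain was above 23.1 TPM, although 10 of 87 were above the lowest NZO library. Reg3a stood at 3.57, 82.2, 278 and 19.8 TPM in NZO and between 1.21 and 110 TPM in CAST, with a median of 6.54 TPM. In PWK it did not exceed 1.44 TPM. Reg3d, another member of the Reg3 group, stood at 3.20, 198, 206 and 28.5 TPM in NZO and between 14 and 178 TPM in CAST, with a median of 74.5 TPM, against 0.58 to 8.05 TPM in AJ. Its difference between NZO and CAST was 0.11 on the log2 scale (SE 0.784) and was not called (adjusted p = 0.919).

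The make-up of the family differed accordingly. In the median CAST library Reg1 was 82.1% and Reg2 16.7% of the family, and in the median NZO library Reg1 was 72.4%, Reg3b 11.2% and Reg2 10.5%, whereas Reg1 was 97.5% in WSB and 98.1% in PWK. Reg3b stood above Reg3a in every library with a value of the other 7 strains, by a median ratio from 3.59 in AJ to 28.1 in PWK. In CAST the median ratio was 0.853 (0.103 to 1.79), and Reg3b was above Reg3a in 6 of 14 libraries. The ratio of Reg3d to Reg1 was 0.298% in the median PWK library (0.244% to 0.660%), against medians between 1.18% and 2.94% in the other strains. These ratios are of TPM within a library and have no test of their own.

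All 6 tested members rose with the acinar enzyme Cpa1, with larger coefficients for Reg1 and Reg3d than for the other 4. In a model of strain, sex and log2 Cpa1 CPM, the coefficient of Cpa1 was 1.08 for Reg1 (SE 0.0426, adjusted p = 7.14e-39) and 1.12 for Reg3d (SE 0.0490, adjusted p = 1.06e-35), close to a proportional change. The coefficients were 0.75 for Reg3b (SE 0.182, adjusted p = 0.00102), 0.71 for Reg3g (SE 0.144, adjusted p = 7.82e-05), 0.70 for Reg2 (SE 0.158, adjusted p = 0.000442) and 0.67 for Reg3a (SE 0.184, adjusted p = 0.00416), all from edgeR's quasi-likelihood test. Thus 6 of 6 members passed with a positive sign, where 12.4% of all genes did. So did 19 of 19 acinar markers other than Cpa1, with a median coefficient of 1.15, and 7 of 8 ductal markers, whereas 0 of 9 beta cell and 0 of 4 alpha cell markers did, against a median of -0.00667 over all genes. The differences between the members' coefficients were not tested. In islet tissue measured in bulk, a change in the number of acinar cells and a change in the RNA of each cell cannot be told apart.

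**Figure D2:**
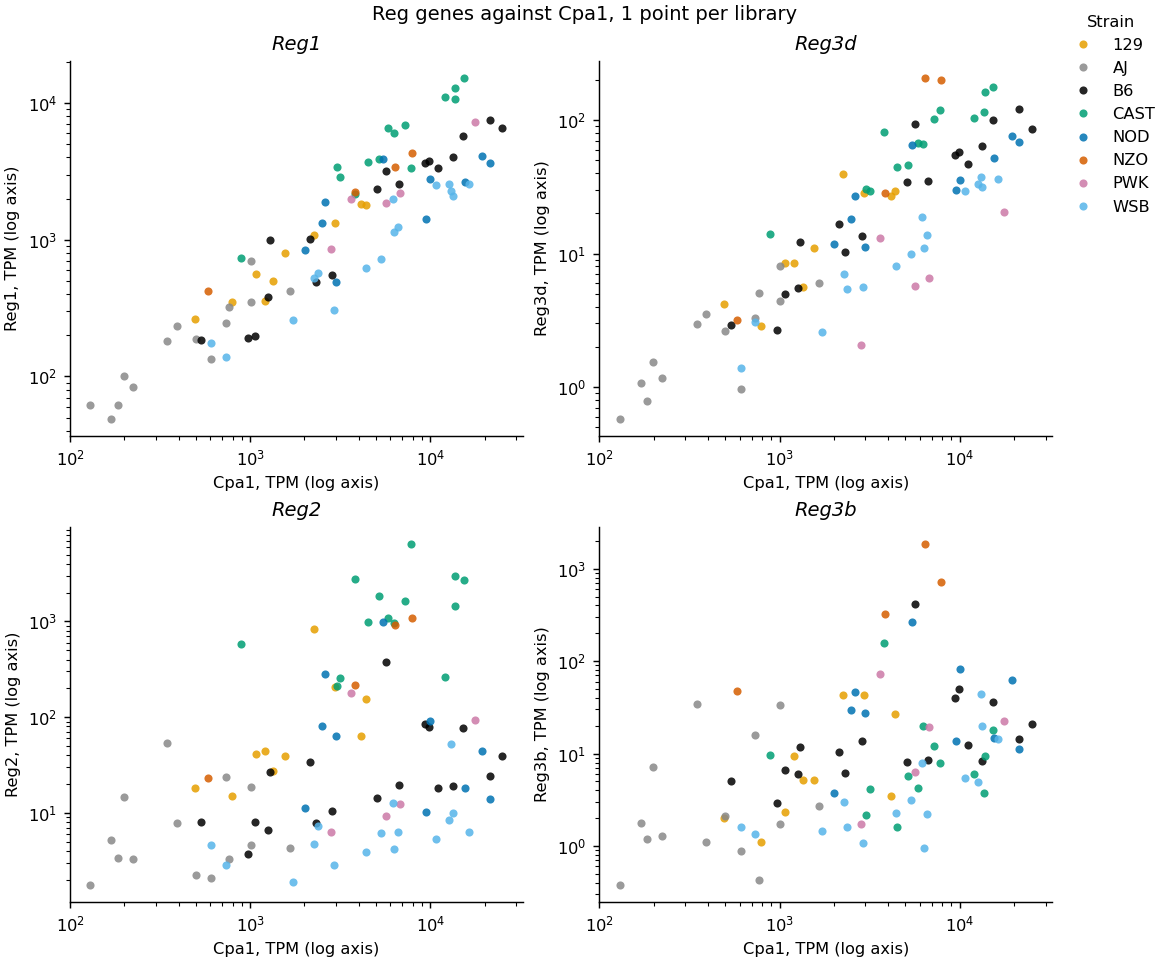
TPM of Reg1, Reg3d, Reg2 and Reg3b against TPM of Cpa1 in the same library (both axes logarithmic; 1 point per library, coloured by strain). Reg1 and Reg3d rise with Cpa1, with Reg3d of PWK at the low side of its points, while Reg2 of CAST and Reg3b of NZO mostly lie above the libraries of other strains with like Cpa1.

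The spread within strains fell for Reg1 and Reg3d on division by Cpa1, and did not fall for the other 4. Within strains, the SD of log2 Reg1 was 1.37 on the scale of log2(TPM + 1) and 0.506 for its log2 ratio to Cpa1, and that of Reg3d was 1.31 and 0.582. For Reg2 the SD was 1.59 before and 1.65 after division by Cpa1, for Reg3b 1.57 and 1.60, for Reg3a 1.28 and 1.55 and for Reg3g 0.997 and 1.35. The medians of Reg3a and Reg3g over all libraries were 1.28 and 1.02 TPM. The added 1 TPM flattens such low values, so the rise of their SD cannot be set against the fall for Reg1 and Reg3d. Across the 91 libraries, with all values of a library sharing its depth and its acinar content, log2 normalized counts of Reg1 and Reg3d had a Pearson r of 0.943, and Reg1 and Cpa1 of 0.924. Reg3b and Reg3g had an r of 0.896, Reg2 and Reg3a of 0.847 and Reg3a and Reg3b of 0.807. After removal of the strain means, r was 0.872 for Reg3a and Reg3b, 0.869 for Reg2 and Reg3a and 0.840 for Reg2 and Reg3b, against 0.492 for Reg3b and Cpa1.

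Reg3b, Reg3a, Reg3g and Reg2 often had their highest value in the same library. The library with the highest Reg3b of its strain also had the highest Reg3a in 7 of 8 strains, the highest Reg3g in 7 of 8 and the highest Reg2 in 5 of 8. It had the highest Reg3d in 2 of 8 strains and the highest Reg1 or Cpa1 in 0 of 8. In B6, male library 18 held 414 TPM of Reg3b, which is 37.2 times the B6 median, and in CAST, female library 5 held 159 TPM, or 22.9 times the median. The highest library was 19.7 times the median in AJ, 16.6 times in WSB, 9.25 times in NOD, 8.33 times in 129, 3.80 times in PWK and 3.55 times in NZO.

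Outside the family itself, the genes nearest to each member were found by Pearson r of log2 normalized counts over 91 libraries. Those of Reg1 were Klk1 (0.959), Clps (0.956), Homer2 (0.954), Rnase1 (0.949) and Cela2a (0.944), which include the acinar products kallikrein, colipase, pancreatic ribonuclease and an elastase. Those of Reg3d were Amy2a5 (0.922), an amylase, Klk1 (0.915), Sostdc1 (0.913), Gata4 (0.911) and Clps (0.908). Among the genes outside the family, Reg2 was nearest to Dnajc22 (0.787), RP23-381J6.4 (0.777), Itih4 (0.759), Gstm7 (0.741) and Amy1 (0.735), and Reg3a to Itih4 (0.772), RP23-381J6.4 (0.715), St3gal4 (0.658), Lcat (0.656) and Wars (0.654). Itih4 encodes a plasma protein of the acute phase. Reg3b was nearest to Hkdc1 (0.739), Itih4 (0.692), Fermt1 (0.670), Plpp2 (0.658) and Iyd (0.651), and Reg3g to Grhl2 (0.702), Hkdc1 (0.690), Fermt1 (0.677), Krt23 (0.662) and Slc12a8 (0.662). Grhl2, a transcription factor of epithelia, and the keratin Krt23 are epithelial genes.

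All 6 tested members differed between the strains, as did 97.4% of all genes tested, so the members' share is close to the background. The adjusted p-values of edgeR's quasi-likelihood test ran from 2.05e-20 for Reg2 to 7.03e-10 for Reg3g. All 6 also passed at fixed Cpa1, beside 97.1% of all genes, and as a ratio to Cpa1, beside 99.9%. Of the 28 pairs of strains, 14 differed for Reg1, 18 for Reg2, 16 for Reg3a, 12 for Reg3b, 19 for Reg3d and 11 for Reg3g. This made 90 of 168 comparisons, or 53.6%, beside 50.3% over all genes. When the 168 comparisons were made at fixed Cpa1, 94 passed, or 56%, beside 49.1% over all genes. As ratios to Cpa1 69 passed, or 41.1%, beside 41.2%, but that pooled share mixes unlike pairs. On this scale 95.6% to 99.7% of all genes were called in pairs with AJ. In pairs without AJ or 129, 0.125% to 2.66% were called. The like pooled shares therefore do not place the members at the background within each pair. Without the 12 libraries whose sex markers oppose their label, 82 passed, 79 of them among the 90. When the libraries of each sample were summed, 48 passed, all among the 90.

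NZO stood above every other strain for Reg3b and Reg3g. Reg3b was higher in NZO than in NOD by 3.77 on the log2 scale (SE 0.989, adjusted p = 0.00112), a 13.6-fold difference, than in B6 by 4.27 (SE 0.866, adjusted p = 3.16e-05), a 19.3-fold difference, and than in AJ by 6.86 (SE 0.988, adjusted p = 1.70e-08), a 116-fold difference. The differences from PWK (5.10), CAST (5.27), 129 (5.87) and WSB (6.54) lay between. For Reg3g the differences ran from 2.48 against NOD (SE 0.869, adjusted p = 0.0152) to 5.47 against 129 (SE 0.936, adjusted p = 1.37e-06). Of all genes, 2.26% were likewise higher in NZO than in each other strain. Reg3a was higher in NZO than in 6 strains, by up to 7.02 against PWK (SE 1.5, adjusted p = 7.32e-05). The difference from CAST was 1.91 (SE 0.865) and was not called (adjusted p = 0.0607).

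The NZO difference remained with Cpa1 in the model. At fixed Cpa1, Reg3b, Reg3g and Reg3a were each higher in NZO than in the 7 other strains, as were 2.55% of all genes. The smallest differences were 3.82 for Reg3b (against NOD, SE 0.889, adjusted p = 0.000228), 2.82 for Reg3g (against AJ, SE 0.885, adjusted p = 0.00825) and 1.91 for Reg3a (against CAST, SE 0.791, adjusted p = 0.0388). As a share of Cpa1 in the same library, Reg3b was 8.75% in the median NZO library (8.09% to 28.8%), against medians from 0.0758% in WSB to 0.568% in NOD. Tested as a log2 ratio to Cpa1 with limma, Reg3b was higher in NZO than in each other strain, by at least 3.57, as were 0.0329% of all genes. This share is bounded by the comparison with AJ, where Cpa1 was lowest. On this scale 97.8% of all genes were higher in AJ than in NZO and 0.0856% higher in NZO. The share therefore does not measure how unusual Reg3b was. Reg3g passed against 5 and Reg3a against 3 of the 7 strains.

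**Figure D3:**
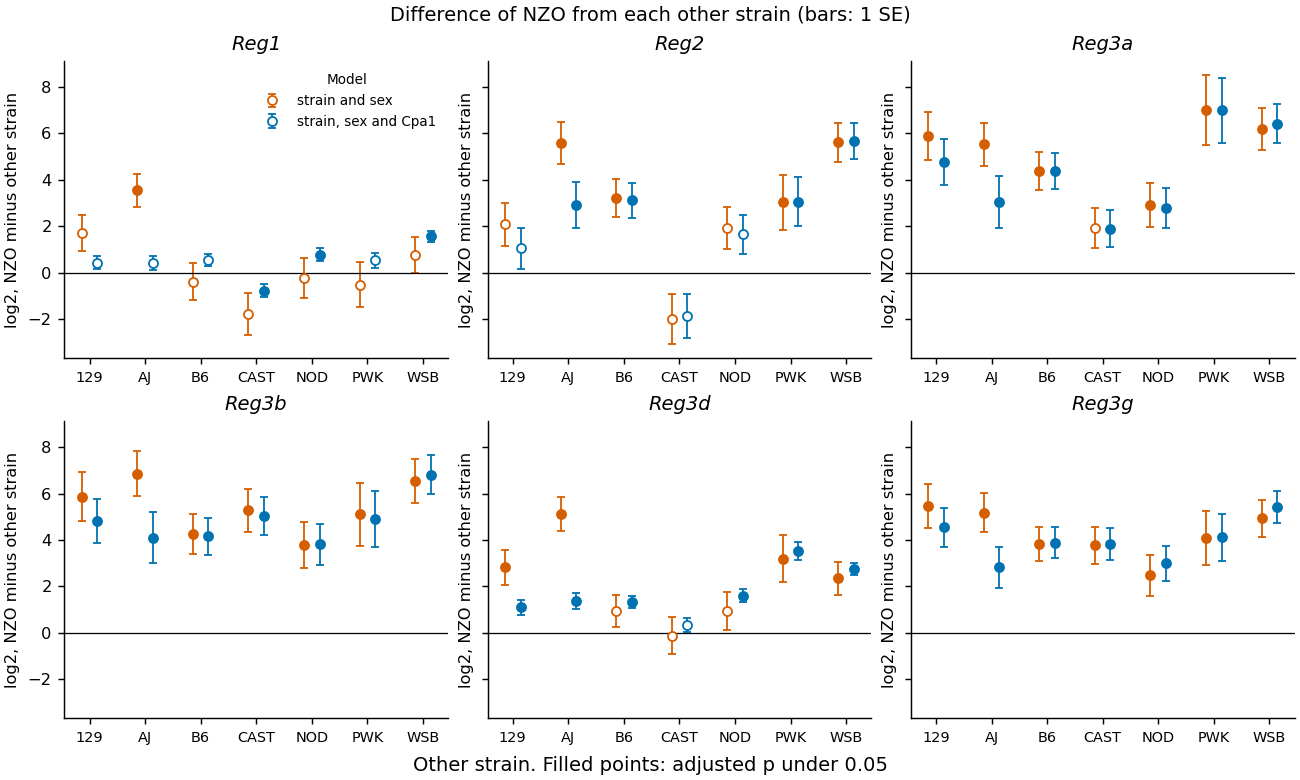
Log2 difference of NZO minus each other strain for the Reg genes, with bars of 1 SE; orange points come from the model of strain and sex and blue points from the model with Cpa1 added, and filled points have an adjusted p under 0.05. Reg3b and Reg3g lie above 0 and are filled against all 7 strains in both models.

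NZO had 4 libraries, and female library 89 carried the highest Reg3b, Reg3a and Reg3g. Without it, Reg3b was still higher in NZO than in all 7 strains (by 2.68 or more, largest adjusted p = 0.0357), whereas the Reg3g difference from NOD fell to 1.98 (adjusted p = 0.0905; 1.15e-05 to 0.0905 over all alternatives) and Reg3a at fixed Cpa1 was higher than in 4 strains in place of 7. As a ratio to Cpa1, Reg3b was called higher in NZO than in 5 strains without this library, and than in 6 with a pseudocount of 10 TPM. Among 129, NOD, NZO and PWK alone, Reg3b was higher in NZO than in the 3 others by at least 3.28 (largest adjusted p = 0.00304).

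CAST stood apart for Reg2 and, at fixed Cpa1, for Reg1. Reg2 was higher in CAST than in WSB by 7.61 on the log2 scale (SE 0.798, adjusted p = 6.46e-14), a 196-fold difference, than in AJ by 7.60 (SE 0.849, adjusted p = 1.02e-12) and than in B6 by 5.21 (SE 0.676, adjusted p = 2.32e-10). PWK, 129 and NOD were lower by 5.04, 4.09 and 3.93, all called. The difference from NZO was 2.00 (SE 1.08) and was not called (adjusted p = 0.121). Reg1 was higher in CAST than in AJ by 5.32 (SE 0.637, adjusted p = 1.40e-11) and than in B6 by 1.38 (SE 0.512, adjusted p = 0.0198), but the latter had an adjusted p of 0.259 with the libraries of each sample summed. At fixed Cpa1, CAST had more Reg1 than each of the 7 other strains, as 2.4% of all genes did, from 0.76 against NZO (SE 0.293, adjusted p = 0.0247) to 2.33 against WSB (SE 0.184, adjusted p = 1.08e-19). The difference from NZO was not called without NZO library 88, 89 or 90 (largest adjusted p = 0.0793), and as a ratio to Cpa1 Reg1 passed against 5 strains.

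**Figure D4:**
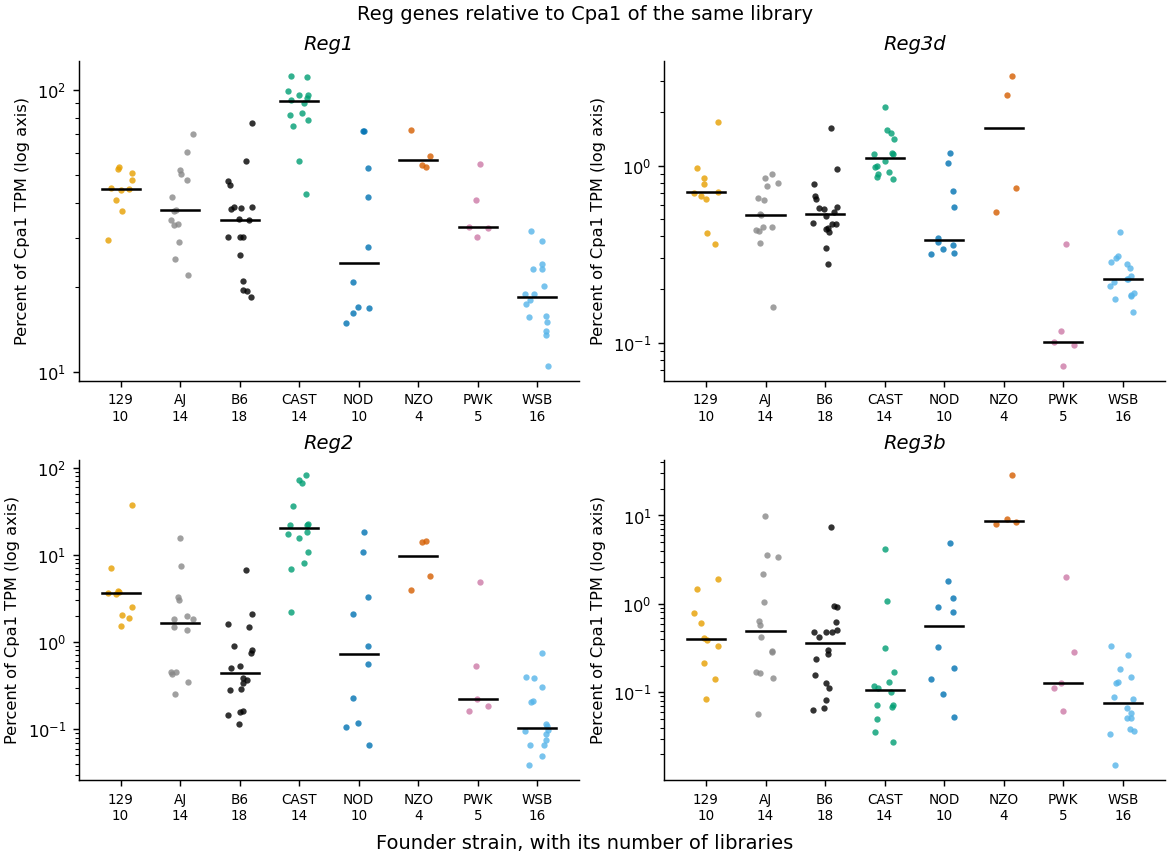
TPM of Reg1, Reg3d, Reg2 and Reg3b as a percent of Cpa1 TPM in the same library (points; y axis logarithmic) by strain, with medians as black bars. Reg1 is at 91.3% in the median CAST library, Reg3d is at 0.10% in the median PWK library, and Reg3b is at 8.75% in the median NZO library.

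AJ had the lowest Reg1 and Reg3d, and this did not hold relative to Cpa1. Both genes were lower in AJ than in each other strain, as were 2.29% of all genes, Cpa1 among them, whose lowest, median and highest values in AJ were 129, 446 and 1655 TPM. In B6 they were 535, 5368 and 25126 TPM. The smallest differences were 1.83 for Reg1 (from 129, SE 0.592, adjusted p = 0.00745) and 1.93 for Reg3d (from PWK, SE 0.788, adjusted p = 0.0325). At fixed Cpa1, 0 members and 1.43% of all genes were lower in AJ than in each other strain by edgeR's quasi-likelihood test, and 0 members at an unadjusted p under 0.05. As a share of Cpa1, Reg1 was 37.5% in the median AJ library, between 34.7% in B6 and 44.9% in 129. Without the 12 libraries whose sex markers oppose their label, both genes were called lower in AJ than in 6 of 7 strains (largest adjusted p = 0.0632 for Reg1 and 0.0627 for Reg3d), and without PWK male library 69 the difference of Reg3d from PWK was 1.00 (adjusted p = 0.349). With limma-voom Reg3d was called lower in AJ than in 4 strains, and with the libraries of each sample added together Reg1 than in 6 and Reg3d than in 4.

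At fixed Cpa1 the low end was held by other strains. Reg1 and Reg2 were lower in WSB than in each other strain, as were 2.05% of all genes, and Reg1 was 18.4% of Cpa1 in the median WSB library. Reg3d was lower in PWK than in each other strain, as were 4.69% of all genes, by 0.75 from WSB (SE 0.303, adjusted p = 0.0318) up to 3.51 from NZO (SE 0.380, adjusted p = 7.26e-13). Reg3d was 0.10% of Cpa1 in the median PWK library (0.0735% to 0.361%), against 0.229% in WSB, 1.11% in CAST and 1.63% in NZO. The difference of Reg3d from WSB was not called without PWK library 66, 67 or 68 (largest adjusted p = 0.111), nor that of Reg2 between WSB and PWK without PWK female library 75 (adjusted p = 0.169). As ratios to Cpa1, Reg1 and Reg2 were called lower in WSB than in 3 and 5 strains, and Reg3d lower in PWK than in 4. Both AJ and 129 were among these strains for each gene, and on this scale 92.4% to 99.7% of all genes were likewise lower in WSB and 77.4% to 99.3% lower in PWK than in those 2 strains, against at most 1.34% for the others.

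Ordered by the fitted level, most neighbouring strains did not differ. For Reg1 the order was CAST, B6, PWK, NOD, NZO, WSB, 129 and AJ, with a difference called between CAST and B6 and between 129 and AJ. For Reg2 it was CAST, NZO, NOD, 129, PWK, B6, WSB and AJ, with B6 above WSB (adjusted p = 0.000985). For Reg3b and Reg3g only NZO differed from its neighbour, which was NOD for both. For Reg3d, NOD differed from WSB (adjusted p = 0.0210) and PWK from AJ, and for Reg3a no neighbours differed.

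Genes of the IL-22, IL-6 and STAT3 pathway were read for the same strains, from a list of 27 genes of which 22 were tested. In NZO against B6, where 37.2% of all genes differed, 10 of the 22 were higher in NZO, 4 were lower and 8 were not called, with a median of 0.41 beside 0.00719 over all genes. By the same test 21.6% of all genes were higher in NZO and 15.6% higher in B6. The list has no test of its own.

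Among the ligands, Osm was higher in NZO by 2.71 (SE 0.346, adjusted p = 3.48e-10), Il6 by 2.37 (SE 0.638, adjusted p = 0.00179) and Lif by 2.26 (SE 0.402, adjusted p = 2.42e-06). Il22 was at 0 in all 4 NZO libraries and at most 0.49 TPM elsewhere, and was not tested. Of the 7 receptors tested, 2 were higher in NZO, 3 were lower and 2 were not called, with a median of -0.217. The higher ones were Il6st, the shared chain of the IL-6 family receptors, by 1.44 (SE 0.108, adjusted p = 2.95e-20, edgeR's quasi-likelihood test), and Osmr. Il22ra1, the specific chain of the IL-22 receptor, was lower in NZO by 2.62 (SE 1.03, adjusted p = 0.0368), and its coefficient of Cpa1 was 1.30 (adjusted p = 1.22e-44).

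Stat3 itself was higher in NZO by 0.54 (SE 0.178, adjusted p = 0.0120), with 57.7 to 83.6 TPM in the 4 libraries, and Socs3, its target and inhibitor, by 1.16 (SE 0.331, adjusted p = 0.00315). Socs3 stood between 280 and 397 TPM in NZO, which overlapped other strains, where it reached 446 TPM. Of the 5 signalling genes tested, Stat3 and Socs3 among them, 2 were higher in NZO, 1 was lower and 2 were not called. Lcn2, an acute phase protein of epithelia, had the largest difference of the list, 5.08 (SE 0.632, adjusted p = 1.51e-10). It held between 8.05 and 96.1 TPM in NZO and at most 15.1 TPM in the libraries of the other strains. Extl3, a proposed Reg receptor, differed by -0.24 (SE 0.204) and was not called (adjusted p = 0.374).

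**Figure D5:**
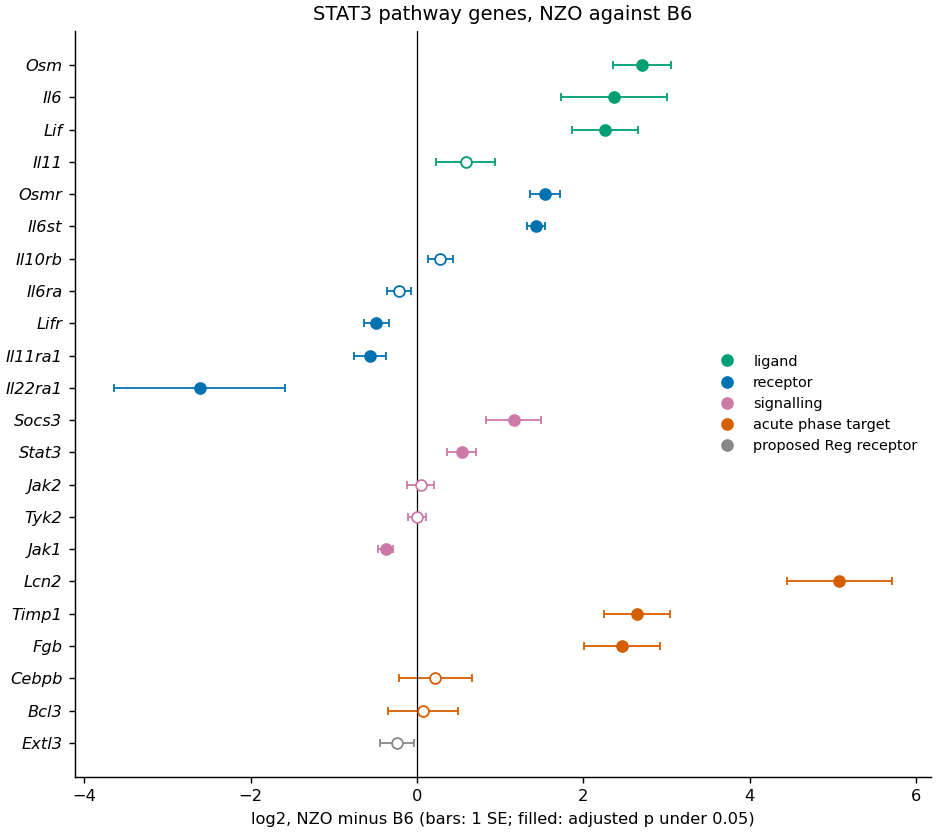
Log2 difference of NZO minus B6 for the 22 tested genes of the IL-22, IL-6 and STAT3 pathway, with bars of 1 SE; filled points have an adjusted p under 0.05. Lcn2 is highest at 5.08 and Il22ra1 lowest at -2.62.

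Markers of other cells also differed between NZO and B6, where 21.6% of all genes were higher in NZO and 15.6% higher in B6. Higher in NZO were 4 of 8 ductal, 4 of 4 macrophage, 3 of 4 B cell, 3 of 3 endothelial and 3 of 3 stellate and fibroblast markers, 1 of 3 T cell markers tested and the leukocyte gene Ptprc. Lower were 5 of 9 beta cell, 3 of 4 alpha cell and 1 of 2 delta cell markers, and of 20 acinar markers 1 was higher. The summed ductal markers ranged from 368 to 1133 TPM in NZO and from 149 to 1616 TPM in B6, and the macrophage markers from 29.6 to 112 TPM and from 8.26 to 28.6 TPM. The summed delta cell markers ranged from 997 to 1835 TPM in NZO and from 2058 to 4588 TPM in B6, with no overlap. The part of these cells in the Reg differences was not tested. In NOD, Ptprc ranged from 2.46 to 218 TPM, against 1.78 to 7.79 TPM in NZO.

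Reg4 was close to absent. It was above 0 in 16 of 91 libraries and had 10 or more counts in 4. Of the 3 libraries above 1 TPM, a WSB male library held 3.42 TPM, an AJ male library 2.12 TPM and a CAST male library 1.16 TPM. It was at 0 in all NZO and PWK libraries. In the 3 libraries above 1 TPM, the intestinal gene Muc2, a goblet cell mucin, stood at 1.62 to 6.77 TPM. It was at most 0.45 TPM in the 75 libraries without Reg4. Fabp2, a fatty acid binding protein of enterocytes, stood at 1.70 to 43.6 TPM against at most 2.94 TPM, so its ranges overlapped. Libraries with some Reg4 at or below 1 TPM were not compared for Muc2 and Fabp2. These 2 genes were chosen after their values were seen. When every gene with any count was tested, Reg4 differed between strains (adjusted p = 0.00281), as did 88.4% of 19718 genes, but its median was 0 TPM in every strain and the 4 libraries with 10 or more counts held 86.1% of all its counts.

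No member differed between the sexes over all strains in edgeR's quasi-likelihood test (adjusted p from 0.660 to 0.941), where 4.0% of all genes did, and 0 members had an unadjusted p under 0.05. DESeq2 called 0 members, beside 4.67% of all genes, and limma-voom called 1 of 6, Reg2, lower in males by 1.21 (adjusted p = 0.0377), beside 4.07%. Among the 6 strains in which each sex had 5 or more libraries, the sex difference varied with strain for all 6 members, with adjusted p from 0.00603 for Reg3b to 0.0483 for Reg2, and for Cpa1 (adjusted p = 0.00150), where 5.9% of all genes did. With TMM scaling 5 members passed (Reg2 had an adjusted p of 0.0501), beside 5.74% of all genes, and without the 12 libraries whose sex markers oppose their label 4 did, beside 17.6%. Without the library with the highest Reg3b of each strain 3 did, beside 5.48%, namely Reg1, Reg3d and Reg3b. With Cpa1 as a covariate, Reg3b alone passed (adjusted p = 0.0441), where 0.434% of all genes did. In AJ, B6 and CAST alone, where no sex marker opposed a label, no member passed edgeR's quasi-likelihood test (adjusted p from 0.0633 to 0.356), where 0.981% of all genes did, and 4 had an unadjusted p under 0.05.

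Within B6, Reg1 and Reg3d were lower in males. Within the 5 other strains no member passed edgeR's quasi-likelihood test, where at most 1.7% of all genes passed in any of them. By label, 0 genes passed in WSB and 0.0197% of all genes in 129. Sex markers oppose the label in 4 of 16 libraries of WSB and 6 of 10 of 129. In these strains the test cannot tell whether a member differs between the sexes. An unadjusted p under 0.05 was found in 13 of 30 tests of a member in a strain, against 10.6% over all genes. Reg1 was lower in males of B6 by 2.34 (SE 0.619, adjusted p = 0.00692) and Reg3d by 1.91 (SE 0.574, adjusted p = 0.0206), as was Cpa1 by 2.61 (SE 0.612, adjusted p = 0.00209). In B6, 9.13% of all genes differed between the sexes, and 6.39% were higher in females. By number range, the females numbered up to 32 had a median of 3098 TPM of Reg1 (2339 to 5772) and the males 2084 TPM (380 to 3786), and these overlapped. In the range from 34, the females had 4046 TPM (1020 to 7477) and the males 197 TPM (185 to 556), with no overlap. Between the number ranges themselves, over AJ, B6, CAST and WSB, no member differed by edgeR's quasi-likelihood test, where 44.3% of all genes did, and 0 members had an unadjusted p under 0.05.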

How the data were processed

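RNA-seq of whole islets was analysed in 91 libraries of 8 founder strains. The authors quantified the reads with RSEM against GENCODE vM18 (mm10) and deposited a table per library with expected counts of genes, which carry no scaling between libraries. The deposited TPM values come from the same RSEM tables and were scaled by the authors to transcript length and to the same total in each library. The RSEM version is not given in the sources used here. The labels gave strain and sex, and each file was taken as 1 library.

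Protein-coding genes of chromosomes 1 to 19 and X were kept, the 10% with the lowest variance were removed, and genes counted in 85% or more of the libraries stayed in, which left 15191 of 54146 genes. All but 67 identifiers were matched to GENCODE M21 for coordinates. Rounded expected counts were fitted with edgeR 4.0.16 (quasi-likelihood test), with upper-quartile scaling and a model of strain and sex. The same model was fitted with log2(Cpa1 CPM + 1) added, and log2((TPM + 1)/(Cpa1 TPM + 1)) was tested with limma 3.58.1, where the pseudocount of 1 TPM understates changes of low genes. P-values were adjusted by Benjamini-Hochberg over all genes of a contrast, and an adjusted p under 0.05 was called. Normalized counts are counts divided by the scaled library size. The alternatives included TMM, median-ratio size factors, other filters, limma-voom, DESeq2 1.42.0, counts summed over a sample's libraries, other pseudocounts, an acinar marker list in place of Cpa1 and fits without single libraries or strains. Fits without the library with the highest Reg3b of each strain, also for strain by sex, limma-voom for sex, Cpa1 in the model of strain by sex and the fit of AJ, B6 and CAST alone were chosen after seeing the data. The tests of strain, of the pair of B6 and NZO, of sex, of number range and of strain by sex were first tested on simulated data. So were those of strain at fixed Cpa1, of the coefficient of Cpa1 and of strain on the ratio to Cpa1. DESeq2, limma-voom, sex within strains, strain by sex with Cpa1 and strain pairs on the ratio were not.

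The text names the 7 members, Cpa1, the 5 genes outside the family nearest to each member, and from the pathway list the gene with the largest difference beside Stat3, Socs3, Lcn2 and Extl3; other pathway genes are named beside their roles and were chosen after their values were seen. The members and the lists were chosen with earlier results of these data known. Promoter sequences come from RefSeq (GRCm38.p6), in which all 7 members were matched. Intervals between strains cover the spread between libraries, at depths of 16928552 to 35196145 counts.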

Additional observations from a re-analysis of the deposited data

Results flagged for a closer look

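In groups of 4 to 10 libraries, the highest library stood apart from the rest of its strain in 8 of 26 groups tested. Chance flags about 1 in 20 groups of normally distributed values, a rate that does not apply to TPM, which are skewed. On the scale of log2(TPM + 1), 3 of the 26 groups were apart (Reg3g in 129 and Reg4 in 129 and NOD). On the TPM scale they were Reg1 in PWK at 7238 TPM, Reg2 in 129 at 835 TPM and in NOD at 984 TPM, Reg3a in NOD at 71.1 TPM, Reg3b in NOD at 265 TPM and Reg3g in 129 at 5.88 TPM. Reg4 in 129 at 0.30 TPM and in NOD at 0.37 TPM were also apart, in strains where its median was 0. The 3 NOD values of Reg2, Reg3a and Reg3b came from the same library, female 98.

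The difference between males and females varied between 6 strains for each tested member, by edgeR's test of the interaction. The adjusted p was 0.0208 for Reg1, 0.0483 for Reg2, 0.0185 for Reg3a, 0.00603 for Reg3b, 0.0116 for Reg3d and 0.0111 for Reg3g. Males minus females by label, Reg3b was 2.74 in AJ, 2.38 in WSB and 1.39 in B6, and -2.17 in CAST, -1.06 in NOD and -2.59 in 129, and none of these passed within its strain (adjusted p from 0.200 to 1.00). In each of the 6 strains, the library with the highest Reg3b carried the label of the sex with the higher value. Sex markers oppose the label in 6 of 10 libraries of 129, 4 of 16 of WSB and 2 of 10 of NOD. In WSB, 0 of all genes passed for sex by label. Without that library in each strain, the differences were 2.28 in AJ, 1.61 in WSB, -0.85 in B6, -0.66 in CAST, 0.08 in NOD and -2.32 in 129, and the interaction had an adjusted p of 0.0408 for Reg3b, 0.0112 for Reg1 and 0.00242 for Reg3d but of 0.0915 for Reg2, 0.118 for Reg3g and 0.122 for Reg3a. Without the 12 libraries whose sex markers oppose their label, the interaction had an adjusted p of 0.0506 for Reg1 and 0.0897 for Reg2.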

How the results depend on the processing

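Of 807 values recomputed under alternatives, 772 kept their direction and their side of the threshold, or for counts stayed within 1.5 times, 9 counts moved by more, 4 values gained and 22 lost a call, and no called value changed its direction; the cause was not tested. The number of Reg comparisons between strains that passed was 90, and 85 to 95 without single NZO or PWK libraries, but 48 when the libraries of each sample were summed. The genes with a sex difference numbered 607, and 1491 without the 12 libraries whose sex markers oppose their label, and limma-voom called 1 Reg gene for sex in place of 0. The genes whose sex difference varied with strain numbered 896, and 2681 without those 12 libraries, 66 with Cpa1 as a covariate (1 Reg gene in place of 6) and 149 in AJ, B6 and CAST alone (0 Reg genes; the fit holds fewer libraries); they included 3 Reg genes without the library with the highest Reg3b of each strain. Among AJ, B6, CAST and WSB with the number range in the model, Reg3g did not pass for strain (adjusted p = 0.0677), and among 129, NOD, NZO and PWK alone, Reg2 did not (adjusted p = 0.150). Reg3a was called higher in NZO than in CAST without NZO female library 86 (2.31, adjusted p = 0.0320), and was 0.48 (adjusted p = 0.739) without female library 89. As a ratio to Cpa1 with a pseudocount of 10 TPM, Reg3b was called higher in NZO than in 6 strains, and without female library 89 than in 5. With limma-voom, Reg2 was called higher in CAST than in NZO (2.70, adjusted p = 0.00183). No paired analysis was possible because the labels give the libraries no shared replicate numbers. Depth limits Reg4, at 0 counts in 75 libraries, and the low end of Reg3a and Reg3g.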

Other observations

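The same pathway list was read in the other pairs of strains on which the text turns. In CAST against WSB, 8 of 22 genes were higher in CAST, 4 were higher in WSB and 10 were not called, beside 27.5% of all genes higher in CAST and 28.5% higher in WSB; the largest difference was that of Il6, higher in WSB by 1.45 (SE 0.504, adjusted p = 0.0107, edgeR's quasi-likelihood test). Stat3 was higher in CAST by a small amount (WSB minus CAST -0.29, SE 0.122, adjusted p = 0.0359), while Socs3 (-0.27, adjusted p = 0.339), Lcn2 (-0.46, adjusted p = 0.555) and Extl3 (-0.03, adjusted p = 0.879) were not called. In NZO against NOD, 4 of 22 genes were higher in NZO and 6 were lower, beside 20.4% and 23.9% of all genes. Fgb, the fibrinogen beta chain, had the largest difference (3.15, SE 0.542, adjusted p = 1.23e-06), at 0.11 to 1.15 TPM in NZO, and Lcn2 was higher by 2.99 (SE 0.717, adjusted p = 0.000364). Osm was lower in NZO than in NOD (-0.99, SE 0.413, adjusted p = 0.0445), whereas Stat3 (-0.14, adjusted p = 0.609), Socs3 (0.27, adjusted p = 0.596) and Extl3 (-0.30, adjusted p = 0.266) were not called. In B6 against AJ, 5 of 22 genes were higher in B6, 7 were lower and 10 were not called, beside 24% of all genes higher in B6 and 21.5% higher in AJ. Il22ra1 had the largest difference (4.81, SE 0.716, adjusted p = 2.56e-08), beside 20 of 20 acinar markers that were higher in B6. Extl3 was higher in B6 by 0.74 (SE 0.131, adjusted p = 1.78e-06), and Socs3 lower by 0.76 (B6 minus AJ -0.76, SE 0.228, adjusted p = 0.00441).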
